A study of Mus musculus with 840 samples.

Results

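The genes of cholesterol and fatty acid synthesis were followed in mammary epithelial cells in which Notch1 signalling had been switched on in basal cells. The module held 42 genes, chosen by symbol, of the 39154 genes in the deposited tables. A sterol arm of 17 genes runs from the regulator *Srebf2* to the last steps of cholesterol synthesis. A fatty acid arm of 13 genes runs from the regulator *Srebf1* to elongation and desaturation. An activation, storage and uptake arm of 12 genes, called the storage arm here, takes fatty acids into the cell and into lipid droplets. All 42 symbols matched 1 Ensembl identifier each, and all 42 had reads in the kept cells.

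The mice were SMACreERT2/N1ICD or K5CreERT2/N1ICD, labelled SMA_NIC and K5_NIC. Tamoxifen at P21 removed a stop from a Rosa26 allele that then made the Notch1 intracellular domain (N1ICD) together with a nuclear GFP. SMACre follows the smooth muscle actin promoter and K5Cre the keratin 5 promoter, which mark basal cells of the mammary gland, and the keratin 5 promoter is also active in skin epithelium. GFP+ cells had recombined. GFP- cells were unrecombined cells of the same tamoxifen-treated mice, so no group came from a mouse without Cre or without the N1ICD allele. Cells negative for CD45, Ter119 and CD31 were sorted singly from the basal, intermediate and luminal gates of EpCAM and CD49f after a chase of 1, 3, 4 or 6 weeks in SMACre mice. Both K5Cre plates were described as 3 weeks, but the sample names of the second one give 6 weeks, so its chase is uncertain. A plate held cells of 1 or 2 mice and was taken as the replicate.

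Cholesterol is made from acetyl-CoA through mevalonate, isoprenoids and squalene, and most enzymes of that route are switched on together by SREBP2, the product of *Srebf2*, when sterols in the membrane are low. SREBP1, the product of *Srebf1*, favours the enzymes of fatty acid synthesis. Lactating mammary epithelium makes large amounts of milk fat from fatty acids and packs it in droplets coated by perilipin 2. Sebaceous glands of the skin, which arise from keratin 5 cells, make wax esters, triglycerides and squalene and are rich in the same enzymes.

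Of 744 cells outside a repeat run, 69% passed the filters, which left 330 cells from SMACre mice and 92 and 89 from the first and second K5Cre plate. They made 30 groups of at least 3 cells of 1 gate, 1 GFP state and 1 plate, on 8 plates. Kept cells held 103081 to 3363298 reads, with medians of 402767, 397250 and 1499629 in batches 1, 2 and 3, and the members took 0.423% of all reads. Levels are CPM, the counts of a gene scaled to 1000000 reads, of the summed cells of a group. Basal marker genes such as *Krt5* and *Acta2* summed to 3320 to 19835 CPM in basal GFP+ groups. They summed to 3626 to 13257 CPM in intermediate and to 34.5 to 1413 CPM in luminal GFP+ groups. The list thus set the luminal gate apart, while basal and intermediate groups overlapped in it. One SMACre 3-week plate of batch 1 kept 7 of 96 cells. In the 1-week plate, an endothelial list of 6 genes summed to 706.5 CPM in the basal GFP+ and 1670.5 CPM in the intermediate GFP+ group with all 6 detected, although CD31+ cells had been sorted out. A list of 10 fat cell genes summed to 354 and 1407 CPM in the same groups, with 4 of 10 detected in each. A salivary list of 9 genes reached 33863 CPM in the luminal GFP+ cells of that plate. Kept cells carried 306 pairs of sequencing indexes, of which 53% were used on more than 1 plate, always in different sequencing batches.

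The stretches before the start sites of 6 members are shown first. They were chosen after their values were seen, because each of these genes was higher in both K5Cre basal GFP+ groups than in the 3 SMACre ones. Of the 42 members, 31 had an entry in the RefSeq table of promoters (GRCm38.p6). A sterol regulatory element, searched as TCACNCCAC on both strands of the 250 bases before a start site, was in 1.05% of 32851 promoters. It was found in 1 of 17 promoters of the sterol arm, that of *Hmgcs1*, and in 1 of 13 promoters of the storage arm, of *Acsl1*. The E-box CACGTG was in 6.02% of all promoters and in 4 of 17 promoters of the sterol arm. The CCAAT box was in 33.8% of all promoters, in 14 of 17 promoters of the sterol arm (82.4%), in 5 of 12 of the fatty acid arm (41.7%) and in 9 of 13 of the storage arm (69.2%). A match is a run of letters and not a measured binding site. Capitals below mark the matches to the 3 motifs on either strand, in sequence from 5′ to 3′ along the gene. The genes are *Hmgcs1*, *Mvk* and *Idi1* of the mevalonate route, *Fasn* of the fatty acid arm, and *Plin2* and *Acsl1* of the storage arm. The stretch shown for *Acsl1* lies inside the annotated gene and is the one with the element. Its other promoter, chr8:46470787-46471036, lies at the annotated gene start at 46471037 and had 0 matches to each of the 3 motifs.
*Hmgcs1*, chr13:119690101-119690350, plus strand: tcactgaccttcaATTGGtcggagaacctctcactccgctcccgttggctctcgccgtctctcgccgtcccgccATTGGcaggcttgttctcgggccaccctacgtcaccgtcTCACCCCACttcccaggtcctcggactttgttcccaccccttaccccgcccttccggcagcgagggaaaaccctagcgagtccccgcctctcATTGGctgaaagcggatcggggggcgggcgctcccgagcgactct
*Mvk*, chr5:114444019-114444268, plus strand: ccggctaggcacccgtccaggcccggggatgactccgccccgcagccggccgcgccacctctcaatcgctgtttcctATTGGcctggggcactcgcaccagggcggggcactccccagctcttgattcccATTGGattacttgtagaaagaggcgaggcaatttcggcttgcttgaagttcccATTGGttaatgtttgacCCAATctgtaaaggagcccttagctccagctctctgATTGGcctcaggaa
*Idi1*, chr13:8885356-8885605, plus strand: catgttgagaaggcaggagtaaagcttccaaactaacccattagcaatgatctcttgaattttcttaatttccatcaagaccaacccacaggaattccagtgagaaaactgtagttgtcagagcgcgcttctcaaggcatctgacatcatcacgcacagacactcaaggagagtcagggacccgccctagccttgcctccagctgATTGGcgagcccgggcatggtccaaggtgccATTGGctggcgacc
*Fasn*, chr11:120824548-120824797, minus strand: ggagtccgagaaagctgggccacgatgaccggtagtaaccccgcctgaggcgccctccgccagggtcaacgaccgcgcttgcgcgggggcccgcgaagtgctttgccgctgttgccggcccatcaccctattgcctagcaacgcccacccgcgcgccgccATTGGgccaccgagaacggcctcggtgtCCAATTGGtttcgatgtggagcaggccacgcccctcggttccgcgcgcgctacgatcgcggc
*Plin2*, chr4:86670060-86670309, minus strand: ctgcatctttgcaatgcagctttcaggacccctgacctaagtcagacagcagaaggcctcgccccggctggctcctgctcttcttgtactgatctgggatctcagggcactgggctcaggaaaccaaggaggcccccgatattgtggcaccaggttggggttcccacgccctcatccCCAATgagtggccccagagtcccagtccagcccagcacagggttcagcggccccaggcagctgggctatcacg
*Acsl1*, chr8:46490716-46490965, plus strand: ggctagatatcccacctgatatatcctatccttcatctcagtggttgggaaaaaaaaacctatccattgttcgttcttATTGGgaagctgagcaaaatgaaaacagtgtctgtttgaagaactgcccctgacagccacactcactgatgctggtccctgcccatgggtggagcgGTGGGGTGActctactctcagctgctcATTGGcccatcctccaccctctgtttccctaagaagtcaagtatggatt

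Levels were also divided by the joined length of all annotated exons of a gene, which can exceed the length of its main transcript. By this measure the most abundant members over the 30 groups were *Plin2*, which coats lipid droplets, and *Scd1*, the stearoyl-CoA desaturase. Their means were 112.2 and 109.6 CPM per kb. Next came the delta-6 desaturase *Fads2* at 49.2 CPM per kb and the fatty acid carrier *Fabp5* at 33.6 CPM per kb. The highest of the sterol arm was *Hmgcs1*, which makes HMG-CoA, at 22.1 CPM per kb. At the other end, *Elovl3* had reads in 3 of 30 groups, all of them K5Cre, and is named here because of that value. The level map of the 42 members shows these rows and the K5Cre columns that stand out in them.

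**Figure D1:**
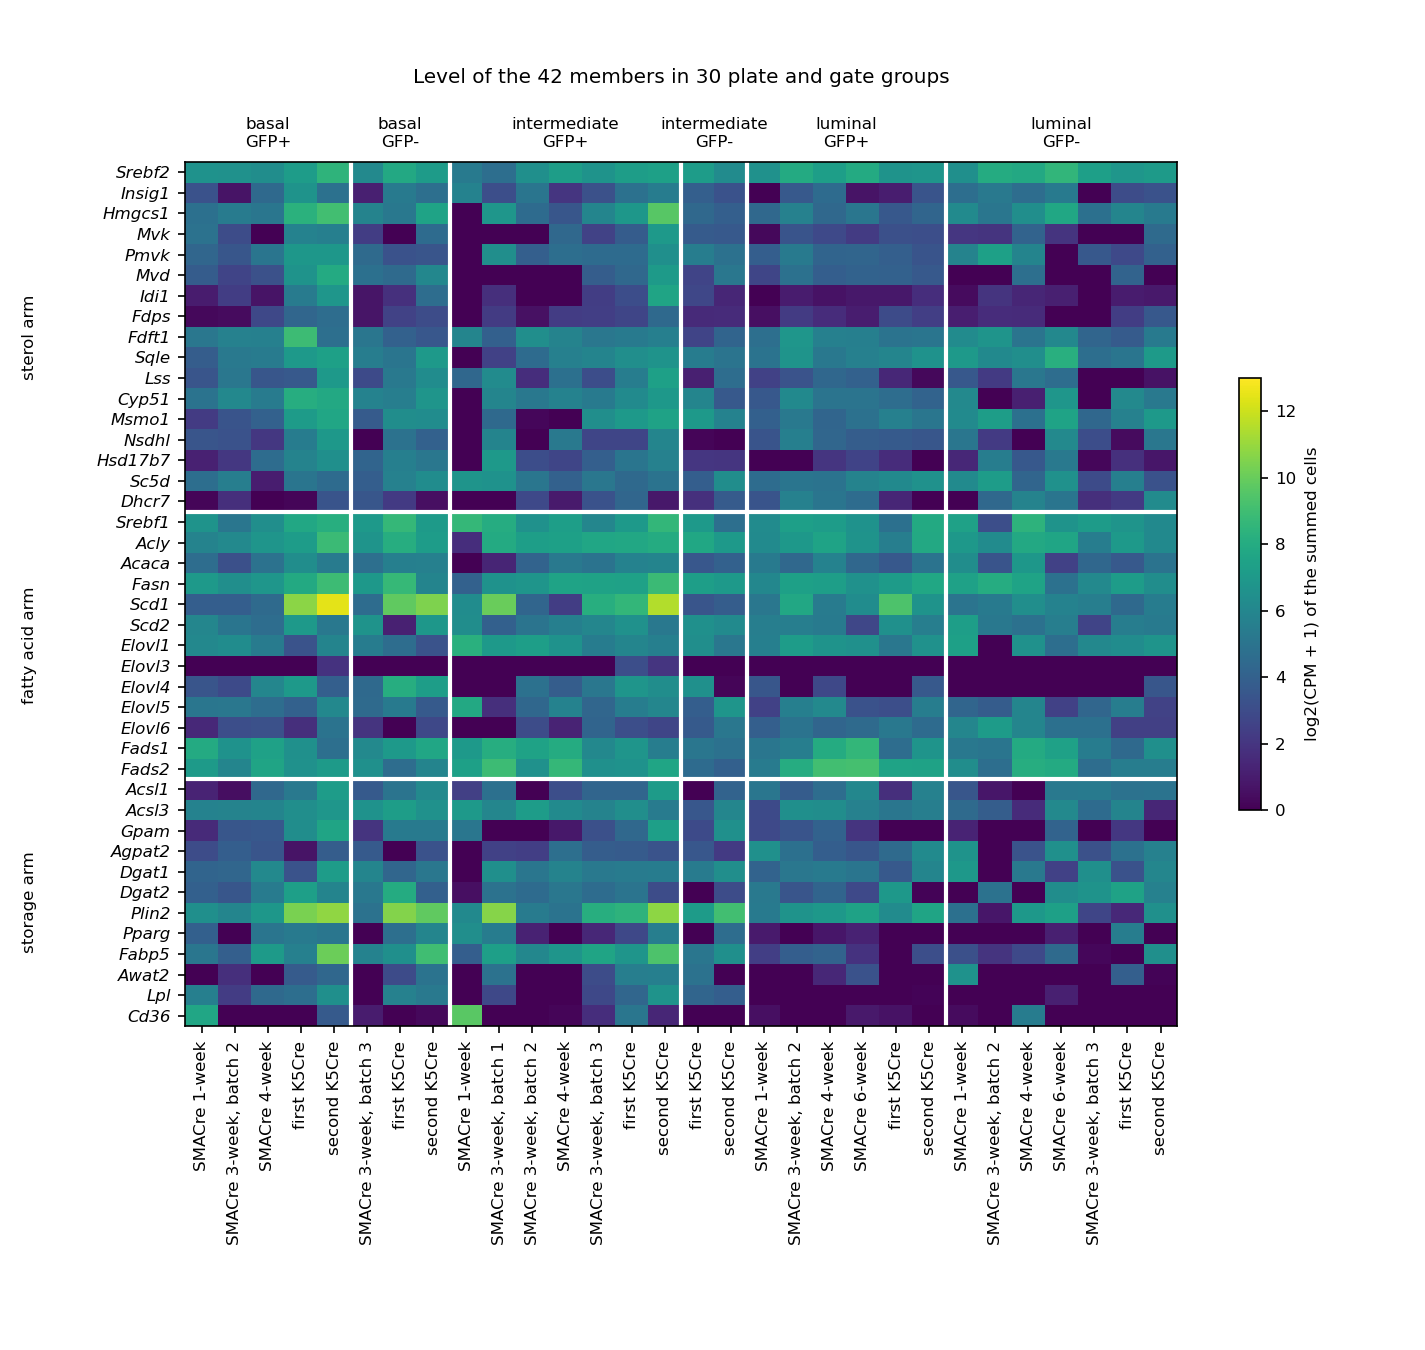
Level of each of the 42 members (rows, by arm) in 30 groups of summed cells (columns, by gate, GFP state and plate), as log2(CPM + 1). Scd1 and Plin2 are bright in the basal GFP+ and basal GFP- columns of both K5Cre plates, in the intermediate GFP+ column of the second K5Cre plate, and in the 3 intermediate GFP+ cells of the SMACre 3-week plate of batch 1. Scd1 reaches 5746 CPM in basal GFP+ cells of the second K5Cre plate.

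In the sterol arm, the regulator *Srebf2* was found in every group. Its level in basal GFP+ cells was 96.7, 95.4 and 82.8 CPM in the SMACre plates of 1, 3 and 4 weeks and 143.5 and 356 CPM in the first and second K5Cre plates. It ranged from 24.6 to 168.1 CPM in intermediate GFP+ groups, with a median of 100.8 CPM over 7 plates, and from 94.4 to 248.2 CPM in luminal GFP+ groups, with a median of 133.6 CPM over 6 plates. *Insig1*, which holds the SREBP proteins back when sterols are plentiful, was at 8.66, 0.618 and 21 CPM in the SMACre basal GFP+ groups and at 100.5 and 28.1 CPM in the K5Cre ones. Both K5Cre values lay above the 3 SMACre values for these 2 genes.

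The early enzymes of the mevalonate route showed the same split by Cre line. *Hmgcs1* was at 27.1, 41.6 and 32.9 CPM in the SMACre basal GFP+ groups and at 318 and 528 CPM in the K5Cre ones. In intermediate GFP+ cells *Hmgcs1* had a median of 59.2 CPM and reached 777 CPM on the second K5Cre plate, while the first K5Cre plate held 116.9 CPM. In luminal GFP+ cells it stayed between 11 and 50.6 CPM on all 6 plates, K5Cre included. *Mvk*, mevalonate kinase, was at 29.4, 7.0 and 0 CPM in SMACre basal GFP+ groups against 52.9 and 48.7 CPM in K5Cre ones. *Pmvk*, the next kinase, was at 18.6, 10.1 and 31.6 CPM against 117.5 and 116.98 CPM. *Mvd*, which closes this part of the route, was at 12.9, 5.46 and 8.37 CPM against 102.7 and 241.6 CPM. The groups of these 4 genes did not overlap in the basal gate.

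*Idi1*, which interconverts the isoprenoid units, had the largest difference of the arm in the basal gate, 4.79 on the log2(CPM + 1) scale for the K5Cre mean minus the SMACre mean. It was at 0.967, 4.12 and 0.608 CPM in the SMACre basal GFP+ groups and at 41.9 and 113.7 CPM in the K5Cre ones. In intermediate GFP+ cells its level was at or below 7.27 CPM on 6 plates and 188.7 CPM on the second K5Cre plate. Luminal GFP+ cells held at most 2.22 CPM. Further down the route, *Nsdhl*, a sterol dehydrogenase, was at 9.78, 8.75 and 3.35 CPM in SMACre and at 43.1 and 119.3 CPM in K5Cre basal GFP+ groups. *Fdft1*, squalene synthase, did not follow: it was at 34, 51.2 and 50.2 CPM in SMACre groups, 479 CPM in the first and 25.6 CPM in the second K5Cre group. *Dhcr7*, which makes cholesterol in the last step, was under 10 CPM in all 5 basal GFP+ groups and reached 51.6 CPM in luminal GFP+ cells of the SMACre 3-week plate. On the other strand *Fdft1* lies opposite *Ctsb*, *Hmgcs1* opposite *Gm48342*, *Idi1* opposite *Gm48574* and *Mvd* opposite *Gm20388*. Further members have such overlaps, among them *Srebf1* with *Rai1*, *Elovl1* with *Cdc20* and *Agpat2* with *Egfl7*. Without a stated strand in the counting such reads cannot be told apart.

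In the fatty acid arm, the regulator *Srebf1* was at 101.2, 33.4 and 86 CPM in SMACre basal GFP+ groups and at 222.5 and 280 CPM in K5Cre ones. *Acly*, which supplies acetyl-CoA from citrate, was at 56.3, 69.1 and 108.8 CPM against 146.6 and 457 CPM. *Fasn*, fatty acid synthase, was at 128.1, 85.5 and 111.3 CPM against 233.8 and 489 CPM. These 3 genes were higher in both K5Cre groups, by less than the mevalonate genes.

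*Scd1*, which puts the first double bond into stearate, differed far more. It was at 13.7, 13.6 and 21.8 CPM in the SMACre basal GFP+ groups and at 1694 and 5746 CPM in the K5Cre ones. The unrecombined basal GFP- cells showed the same split, with 23.4 CPM on the SMACre plate of batch 3 and 915 and 1437 CPM on the K5Cre plates. In the basal gate, single cells carried much of it: 1 cell gave 89.4% of the *Scd1* reads of the 5 basal GFP+ cells of the first K5Cre plate and 53% of those of the 6 cells of the second. In intermediate GFP+ cells *Scd1* had a minimum of 4.20, a median of 281.2 and a maximum of 2945 CPM, the last on the second K5Cre plate. A value of 1042 CPM on the SMACre 3-week plate of batch 1 came from 1 of 3 cells. Luminal GFP+ cells ranged from 34.8 to 649 CPM, with 94.1% of the reads of the highest group from 1 cell. *Scd1* has no entry in the promoter table.

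The other desaturases and the elongases did not follow *Scd1*. *Scd2* was at 62.3, 32.6 and 24.3 CPM in SMACre basal GFP+ groups and at 124.3 and 36.4 CPM in K5Cre ones. *Elovl1*, which elongates saturated fatty acids, was at 66.9, 79.2 and 42.1 CPM against 8.94 and 57.6 CPM. *Fads1*, the delta-5 desaturase of polyunsaturated fatty acids, was the 1 member lower in both K5Cre groups, at 250.2, 98.9 and 172.8 CPM against 89.8 and 25.5 CPM. *Fads2* overlapped, at 136.98, 59.2 and 188.8 CPM against 96 and 135.1 CPM. *Fads2* was high in luminal GFP+ cells, with a minimum of 41.6, a median of 223.3 and a maximum of 580.0 CPM.

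In the storage arm, *Plin2* had the highest levels. It was at 87.7, 59.2 and 118.8 CPM in SMACre basal GFP+ groups and at 1314 and 1802 CPM in K5Cre ones, and at 28.6 CPM in basal GFP- cells of SMACre against 1547 and 908 CPM of K5Cre. Intermediate GFP+ groups ranged from 30.1 to 1792 CPM with a median of 280.6 CPM. Luminal GFP+ groups ranged from 38.2 to 188.8 CPM. *Gpam*, the first enzyme of glycerolipid synthesis, was at 1.97, 10.1 and 11 CPM against 80.8 and 193.3 CPM in the basal gate. *Acsl1*, which activates long-chain fatty acids, was at 1.43, 0.412 and 20.2 CPM against 36.9 and 146.5 CPM. *Acsl3* was at 54.2, 56.2 and 57.7 CPM against 86.2 and 114.7 CPM. All 4 genes were higher in both K5Cre groups than in the 3 SMACre groups.

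The enzymes of the last step of triglyceride synthesis differed from each other. *Dgat2* was at 15, 10.2 and 40.8 CPM in SMACre against 160.6 and 58.1 CPM in K5Cre basal GFP+ groups, while *Dgat1* was at 17.2, 18.6 and 69.2 CPM against 9.09 and 144.3 CPM. *Fabp5* was at 33.6, 14.5 and 133.9 CPM against 48.8 CPM in the first and 1099.8 CPM in the second K5Cre group. *Pparg*, the regulator of fat storage, was at 14.9, 0 and 32.4 CPM against 38 and 33.6 CPM.

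The uptake genes *Lpl*, the lipase that frees fatty acids from lipoproteins, and *Cd36*, a fatty acid receptor, were found in few cells. *Lpl* was at 47.3, 4.02 and 21 CPM in SMACre and 24.9 and 88.4 CPM in K5Cre basal GFP+ groups. Of 98 basal GFP+ cells on the 5 plates with both gates, 10 held *Lpl* reads, and on the 1-week plate 1 cell gave 99% of them. *Cd36* was at 206.2 CPM in basal GFP+ and 828 CPM in intermediate GFP+ cells of the 1-week plate, where the endothelial and fat cell lists were also highest, and 1 cell of 4 gave all of the intermediate reads. Their part in the *Cd36* level was not tested. Outside that plate *Cd36* was at most 42.8 CPM.

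**Figure D2:**
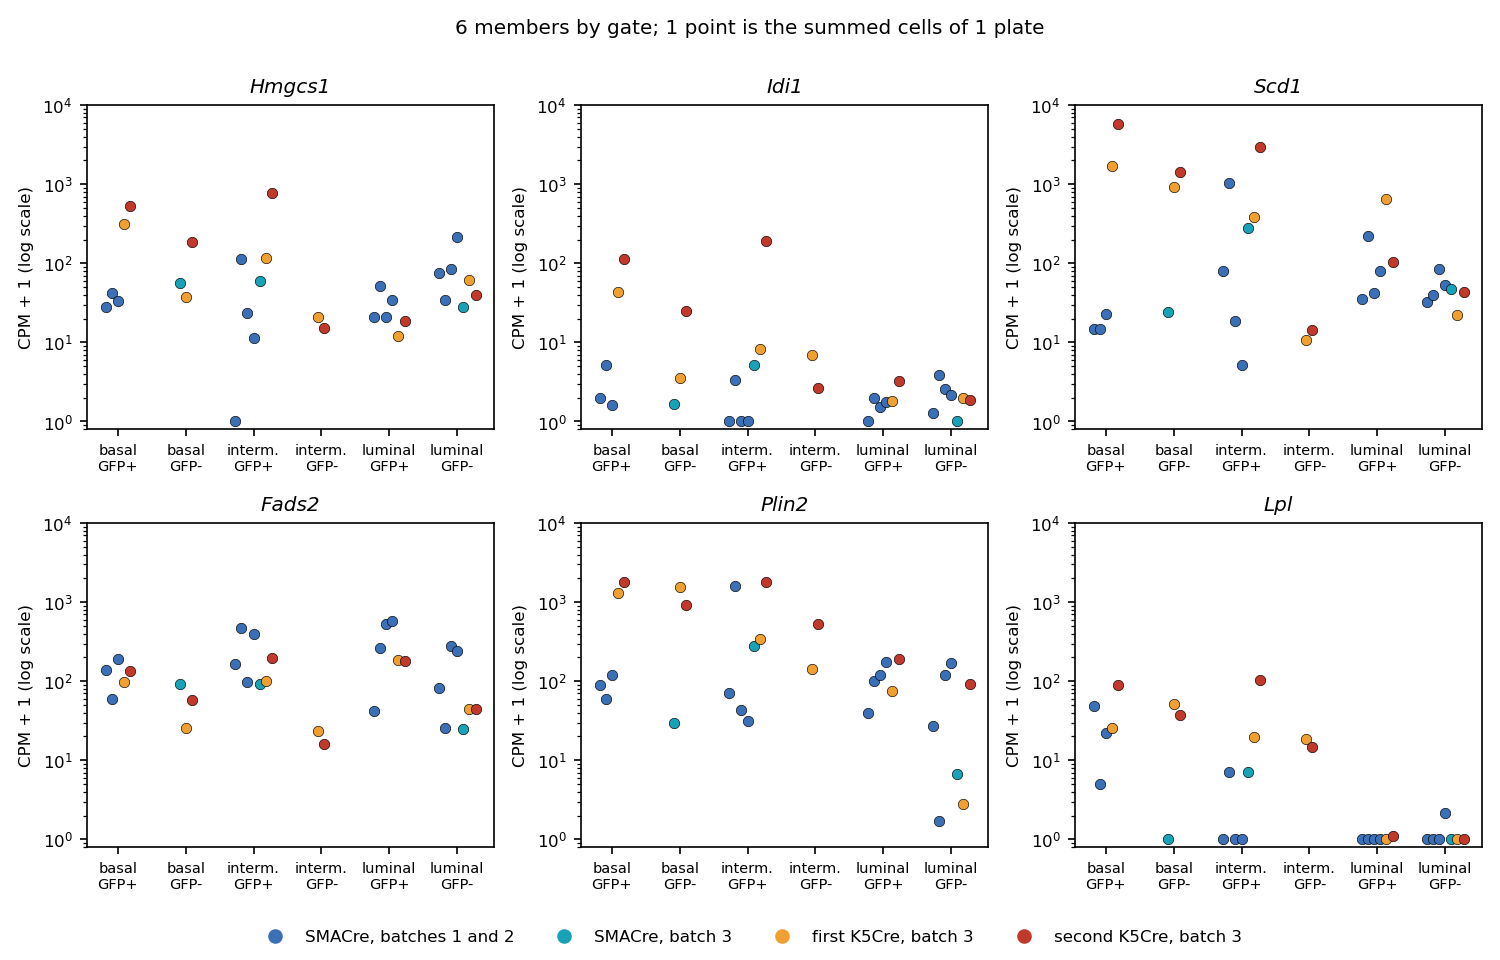
CPM + 1 on a log scale for Hmgcs1, Idi1, Scd1, Fads2, Plin2 and Lpl in each gate and GFP state, with 1 point for the summed cells of each plate. Hmgcs1, Idi1, Scd1 and Plin2 lie higher on the K5Cre plates (orange and red) in the basal GFP+ gate, Fads2 does not, and Lpl lies at or near 0 in the luminal gate.

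Counted over the module, 25 of 42 members were higher in both K5Cre basal GFP+ groups than in all 3 SMACre ones, against 9.72% of the 19732 genes counted. They were 13 of 17 members of the sterol arm, 5 of 13 of the fatty acid arm and 7 of 12 of the storage arm. The reverse held for 1 member, *Fads1*, against 19.7% of genes. The median difference on the log2(CPM + 1) scale, K5Cre minus SMACre, was 2.95 for the sterol arm, 0.95 for the fatty acid arm and 2.25 for the storage arm, against -0.33 for all genes. The K5Cre groups held 5 and 6 cells and came from batch 3, while the SMACre groups came from batches 1 and 2, so Cre line and batch cannot be told apart here. The basal marker list was also lower in the K5Cre groups, at 6343 and 3320 CPM against 12821 to 19835 CPM. The sebaceous list of 10 genes summed to 732 and 2306 CPM in the K5Cre groups, with 8 and 10 genes detected. SMACre basal GFP+ groups held 163.7 to 265.8 CPM with 4 to 6 detected. Such sums were not confined to these groups. The list spanned 94.8 to 1051 CPM in basal GFP-, 175.1 to 2599 CPM in intermediate GFP+ and 52.2 to 1093 CPM in luminal GFP- groups. In the SMACre 4-week group *Krt79*, *Mc5r*, *Fa2h* and *Scd3* were at 0, while other genes of the list were detected. No gene of the list was set as defining, and these are not given for each group. The part of such cells in the difference was not tested.

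Within batch 3 the Cre lines could be set side by side in intermediate GFP+ cells, with 60 SMACre cells and 63 and 61 K5Cre cells on 1 plate each and no replicate of the SMACre plate. The SMACre level was below both K5Cre levels for 29 of 42 members, against 33.9% of 26138 genes. This was so for 14 of 17 sterol, 9 of 13 fatty acid and 6 of 12 storage members. *Hmgcs1* was at 59.2, 116.9 and 777 CPM on the SMACre, first K5Cre and second K5Cre plate. *Srebf2* was at 100.8, 147.99 and 168.1 CPM, *Fasn* at 180.2, 170.02 and 466 CPM, and *Plin2* at 280.6, 339 and 1792 CPM in the same order. SMACre lay close to the first K5Cre plate and far from the second for most of these genes. Over the sterol arm the median log2 ratio of SMACre to the first K5Cre plate was -0.60, and to the second -1.94. In basal GFP- cells of batch 3 the SMACre plate was below both for 22 of 41 members, against 27% of genes, and in luminal GFP- cells for 17 of 38, against 33.7%. By arm the counts were 9 of 17 sterol, 6 of 12 fatty acid and 7 of 12 storage members in basal GFP- cells. In luminal GFP- cells they were 10 of 16, 5 of 12 and 2 of 10. Unrecombined cells of both gates thus showed the split in the sterol arm, in 5 or 6 cells per plate and gate.

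The K5Cre plates were then compared with each other. In intermediate GFP+ cells 17 of 42 members were over 2-fold higher on the second plate than on the first, against 8.26% of 24288 genes with at least 10 reads. They were 8 of 17 sterol, 3 of 13 fatty acid and 6 of 12 storage members. Over 2-fold lower were 6 members, against 9.52% of genes. With 1 plate on each side this is a description of the plates and has no test. In the sterol arm 16 of 17 members were higher on the second plate at any size, with *Dhcr7* the exception at 18.8 and 0.808 CPM. *Idi1* went from 7.27 to 188.7 CPM, *Nsdhl* from 5.61 to 59.5 CPM, *Mvk* from 13 to 127.04 CPM, *Mvd* from 19.7 to 134.3 CPM and *Pmvk* from 22.1 to 89.3 CPM. The regulator *Srebf2* moved little, from 147.99 to 168.1 CPM. In the fatty acid arm the members over 2-fold higher were *Scd1*, from 385 to 2945 CPM, *Srebf1*, from 127.6 to 387 CPM, and *Fasn*, from 170.02 to 466 CPM. *Scd2* went from 95.2 to 35.4 CPM and *Fads1* from 107.4 to 44.6 CPM. In the storage arm *Gpam* went from 20.2 to 161.6 CPM, *Acsl1* from 17.7 to 140.8 CPM, *Pparg* from 5.99 to 46.4 CPM, *Fabp5* from 110 to 656 CPM, *Plin2* from 339 to 1792 CPM and *Lpl* from 18.9 to 101.3 CPM, while *Dgat2* went from 30.8 to 7.12 CPM and *Cd36* from 32.9 to 1.64 CPM.

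**Figure D3:**
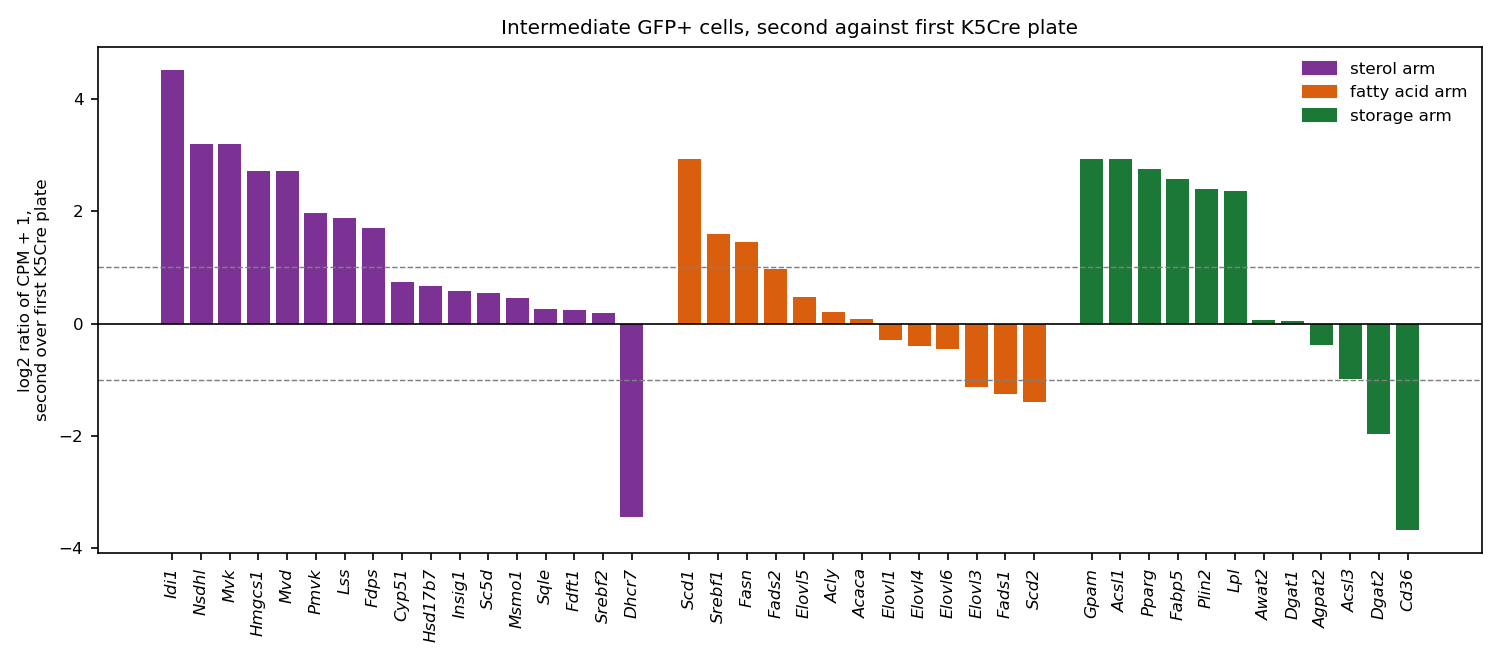
Log2 ratio of CPM + 1 of the second over the first K5Cre plate in intermediate GFP+ cells for the 42 members, by arm; dashed lines mark a 2-fold difference and there is no error bar because each bar is 1 plate against 1 plate. Bars above the upper line number 8 of 17 in the sterol arm, 3 of 13 in the fatty acid arm and 6 of 12 in the storage arm.

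In the basal gate the second K5Cre plate was over 2-fold higher for 20 of 42 members, but 37.2% of the 13917 genes counted there were as well, and 6 members against 21.9% of genes were over 2-fold lower. These groups held 5 and 6 cells. In luminal GFP+ cells, with 6 and 5 cells, 13 of 36 members were over 2-fold higher on the second plate and 5 lower, against 28% and 29.8% of 14195 genes. The members that were higher were 1 of 17 in the sterol arm, 7 of 12 in the fatty acid arm and 5 of 7 in the storage arm, and 3 sterol members were lower. Over the 6 gate and GFP states, *Acsl1*, *Dgat1* and *Fabp5* were higher on the second plate in all 6, which was so for 3 of 42 members and for 1.25% of 26531 genes with at least 10 reads in these groups. *Fdps*, *Sqle*, *Lss*, *Acaca*, *Scd1* and *Plin2* were higher in 5 of 6, which made 9 members in 5 or 6 states, against 7.35% of genes. In intermediate GFP+ cells the sebaceous list summed to 2599 CPM on the second plate, 733 CPM on the first and 589 CPM on the SMACre plate of batch 3, with all 10 genes detected on each. Its largest entries on the second plate were *Mgst1* at 1096 CPM, *Krt79* at 744 CPM and *Soat1*, which esterifies cholesterol, at 433 CPM. The part of such cells in the difference between the plates was not tested, and the plates may also differ in chase.

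The difference between the plates lay in a part of the cells, and the share of cells was not the same for each arm. Of intermediate GFP+ cells of the second K5Cre plate, 31 of 61 (50.8%, exact 95% interval 37.7 to 63.9%) held *Plin2* above 1000 CPM, against 6 of 63 (9.52%, 3.58 to 19.6%) on the first plate and 2 of 60 (3.33%, 0.406 to 11.5%) on the SMACre plate. For *Scd1* the shares were 21 of 61 (34.4%, 22.7 to 47.7%), 3 of 63 (4.76%, 0.993 to 13.3%) and 2 of 60 (3.33%, 0.406 to 11.5%). The intervals cover the number of cells only, since cells of 1 plate share mice. The summed storage arm had a median per cell of 1616 CPM on the second plate, 363 CPM on the first and 331 CPM on the SMACre plate. The summed sterol arm had medians of 429, 500 and 384 CPM, and its upper quartiles were 1404, 726.6 and 530 CPM. The median cell thus differed in the storage arm, while the sterol arm differed in its upper quartile. With the 10 cells highest in *Scd1* left out on each plate, *Plin2* was at 1412 CPM on the second plate against 135.8 CPM on the first. *Hmgcs1* was at 216.2 against 73 CPM and *Idi1* at 49.99 against 3.03 CPM. Without these cells 17 members were over 2-fold higher, of which 15 were among the 17 counted with all cells. *Mvk* and *Fasn* left the count, and *Sc5d* and *Awat2* entered it. Leaving out 10 cells took away all cells above 1000 CPM of *Scd1* on the first plate but not on the second. *Scd1* itself was then at 15.2 CPM on the first plate and 1038 CPM on the second. The step therefore cannot show whether the plates differ apart from their high cells.

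**Figure D4:**
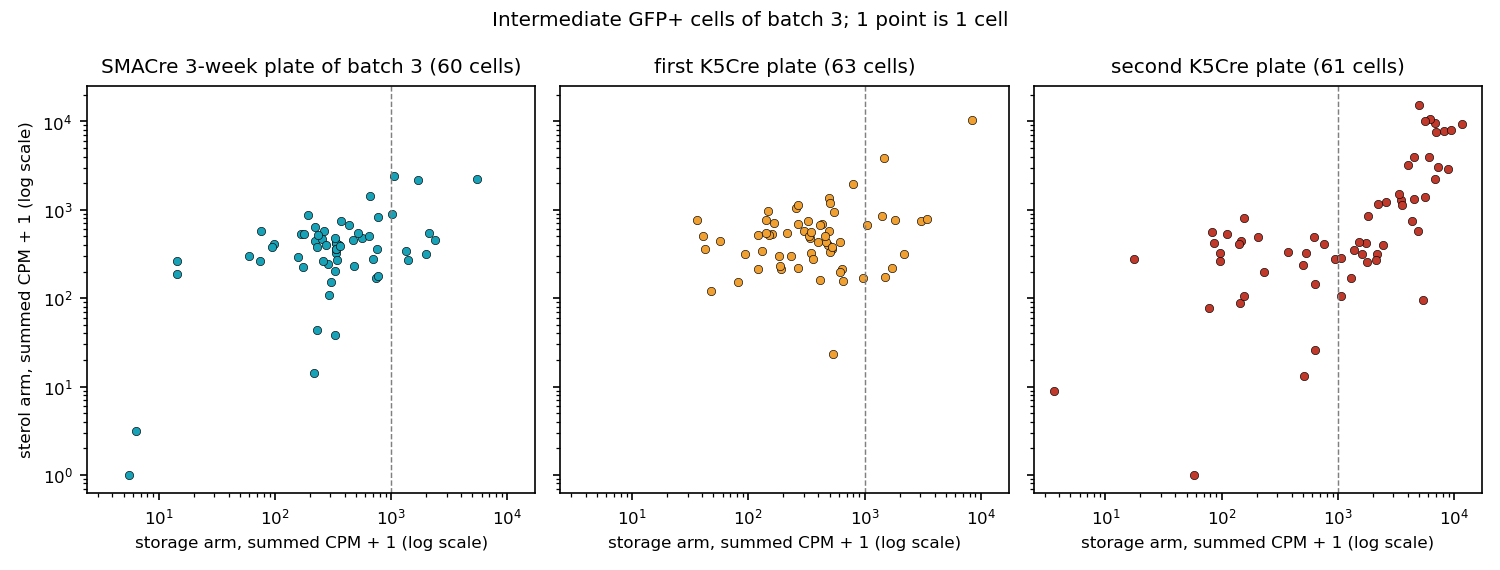
Summed CPM + 1 of the sterol arm (vertical) against the storage arm (horizontal), both on log scales, for each intermediate GFP+ cell of the SMACre plate of batch 3 and both K5Cre plates; the dashed line marks 1000 CPM. On the second K5Cre plate 36 of 61 cells lie right of the line, against 10 of 63 on the first and 9 of 60 on the SMACre plate. In the same order, the sterol arm sum was above 1000 CPM in 21 of 61, 7 of 63 and 4 of 60 cells.

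Across cells the arms went together on the second K5Cre plate. With every cell thinned to 100000 reads, Spearman's rho over its 89 cells was 0.63 between the sterol and fatty acid sums, 0.65 between sterol and storage and 0.75 between fatty acid and storage. On the first K5Cre plate the values were 0.26, 0.19 and 0.41 over 92 cells. On the 5 SMACre plates with over 40 cells, rho of sterol and fatty acid sums lay between 0.035 and 0.38. It lay between -0.078 and 0.34 for sterol and storage and between -0.093 and 0.52 for fatty acid and storage. The highest values of these 2 pairs, on the SMACre plate of batch 3, were above those of the first K5Cre plate. The sums of 1 cell share its library and its total, and these values are descriptions. Within the sterol arm the median rho over pairs of detected members was 0.56 on the second K5Cre plate and 0.060 to 0.22 on the others. The storage sum also went with the sebaceous list on the second plate (rho 0.84), and less on the first (0.42). That list itself holds lipid genes, such as *Soat1* and *Scd3*, so these values cannot name a cell type.

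The tests asked whether the gates and GFP states differed over plates. Between luminal and basal GFP+ cells of the same 5 plates, edgeR's quasi-likelihood test with the plate as a block called 68 of 12091 genes at an adjusted p under 0.05, which is 0.562%. It called 1 of 37 members tested, *Lpl*, lower in luminal cells (fitted log2 change -10.29 ± 1.10 (SE), adjusted p = 0.0211). The luminal cells of the 5 plates held 1 *Lpl* read against 2441 in the basal cells, a ratio of 1858 per read sequenced (exact 95% interval 333 to 73413, counting error only, PCR reads not being independent molecules). *Lpl* was lower in luminal cells on 5 of 5 plates, and the difference rests on 10 of 98 basal cells. The call was lost when the 1-week, the batch 2 3-week, the 4-week or the second K5Cre plate was left out (edgeR adjusted p = 0.0832, 0.0566, 0.0548 and 0.17), with the direction kept. Of the other members, *Fabp5* (log2 change -4.20 ± 1.33), *Hsd17b7*, a sterol reductase (-5.83 ± 1.52), *Cyp51*, the lanosterol demethylase (-1.90 ± 0.67), and *Agpat2*, which adds the next fatty acid to glycerolipids (2.37 ± 0.91), had unadjusted p under 0.05 in the same edgeR fit and adjusted p of 0.249, 0.16, 0.306 and 0.36. With *Lpl* these were 5 of 37 members, near the 11.5% of all genes at an unadjusted p under 0.05. Members outside the naming rule are named in these tests because of their values. Over the 37 members the median log2 change was -0.52 and 9 were positive, against a median of -0.035 for all genes.

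Intermediate against basal GFP+ cells gave 0 called genes of 12348 (0%), with 1.48% at an unadjusted p under 0.05 by edgeR and 99 called by DESeq2. Of 40 members tested 3 had an unadjusted p under 0.05. They were *Elovl1* (log2 change 1.38 ± 0.50), *Mvd* (-4.09 ± 1.27) and *Plin2* (-0.94 ± 0.40), each with an adjusted p of 1. Luminal against intermediate GFP+ cells gave 0 of 11979 (0%), with 822 at an unadjusted p under 0.05 by edgeR and 899 called by DESeq2. Of 36 members, *Fabp5* (-4.17 ± 1.31, adjusted p = 0.485) and *Elovl6*, an elongase of palmitate (2.90 ± 1.14, adjusted p = 0.639), had unadjusted p under 0.05 in edgeR. *Fabp5* was at most 16.3 CPM in luminal GFP+ groups and at least 13.7 CPM in intermediate GFP+ groups, and it was lower in luminal cells on each of the 5 plates.

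Luminal GFP+ cells were also compared with luminal GFP- cells, native luminal cells of the same mice, on 6 plates. edgeR called 0 of 10929 genes (0%), with 436 at an unadjusted p under 0.05, and DESeq2 called 305. Of 35 members 3 had an unadjusted p under 0.05 in edgeR, each with an adjusted p of 1. *Fads2* was higher in GFP+ cells on 5 of 6 plates (log2 change 1.42 ± 0.48), with a median of 223.3 CPM over 6 plates against 43.9 CPM over 7 GFP- groups. *Hmgcs1* (-1.71 ± 0.55) and *Msmo1*, a sterol oxidase (-1.68 ± 0.49), had negative changes, with lower levels in GFP+ cells on 5 and 6 of 6 plates. The median over the 35 members was 0.0017 and 18 were positive, against a median of 0.27 for all genes tested.

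The luminal against basal change was also fitted separately by Cre line and as a difference between Cre lines, a choice made after the levels had been seen. On the 3 SMACre plates the median log2 change of the members was 0.15, and edgeR called 0 of 37 members and 52 genes in all. On the 2 K5Cre plates the median was -2.55 over 40 members, against 0.0072 for all genes, with 17 members and 6.11% of genes at an unadjusted p under 0.05 and 0 genes called. For the difference itself, K5Cre minus SMACre, edgeR called 0 of 12091 genes, with 785 at an unadjusted p under 0.05. Of 37 members 13 had an unadjusted p under 0.05 there. They included *Hmgcs1* (-4.45 ± 0.60, adjusted p = 0.273 by edgeR), *Plin2* (-3.42 ± 0.68, adjusted p = 0.536), *Fabp5* (-5.66 ± 1.29, adjusted p = 0.623) and *Scd1* (-5.50 ± 1.70, adjusted p = 0.719). The members' median difference was -2.54 against 0.13 for all genes. Cre line and batch are the same split in this fit as well.

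Chase time was followed in SMACre luminal GFP+ cells, with 8, 11, 51 and 37 cells at 1, 3, 4 and 6 weeks on 1 plate each, so without a test. The members higher at each later time were 3 of 42, against 4.75% of 17858 genes. *Fads2* was at 41.6, 262.5, 527 and 580.0 CPM, *Fads1* at 33, 46.2, 250.3 and 392.4 CPM, and *Plin2* at 38.2, 100.4, 119.3 and 176.3 CPM. The reverse held for 2 members, *Scd2* (46.6, 45.6, 39.1 and 5.89 CPM) and *Agpat2* (92.5, 27.2, 13.7 and 10.3 CPM), and for 2.9% of genes. After thinning to 100000 reads per cell, 1 member, *Fads2*, was higher at each step. Native luminal GFP- cells of the same plates had *Fads2* at 81.5, 24.9, 276.96 and 243.6 CPM. They had *Fads1* at 36.1, 32, 246.1 and 172.5 CPM and *Plin2* at 26.4, 0.711, 120.1 and 166.7 CPM. All 3 genes were thus also higher at 4 and 6 weeks in cells without N1ICD. The plates of 1 and 6 weeks were of batch 1 and those of 3 and 4 weeks of batch 2. The sterol arm sum was 263.5, 858, 478 and 584 CPM, with no order over time. The 1-week plate is the one with the salivary list at 33863 CPM.

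**Figure D5:**
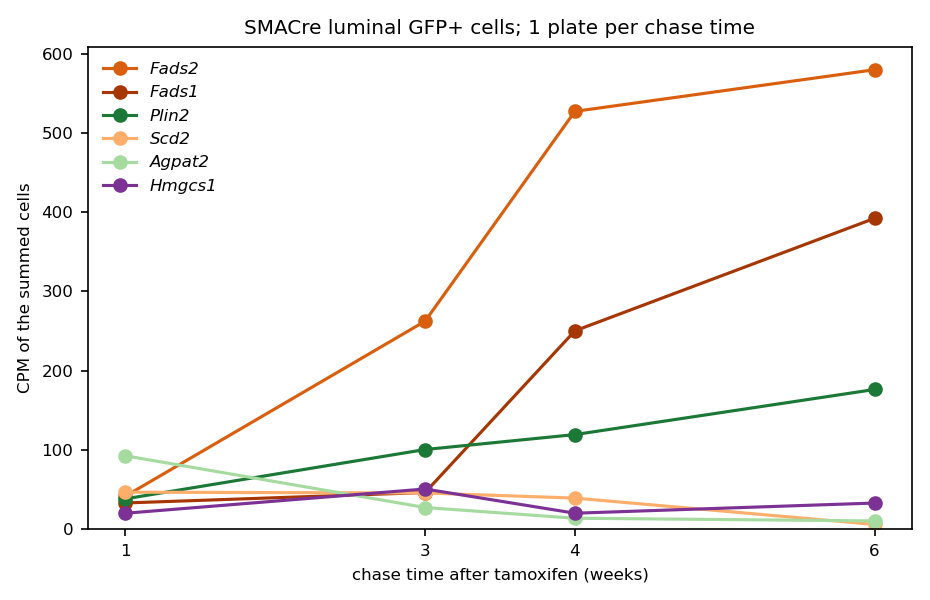
CPM of 6 members in the summed SMACre luminal GFP+ cells of the plates of 1, 3, 4 and 6 weeks; 1 plate per time and no error bar. Fads2 reaches 580.0 CPM and Fads1 392.4 CPM at 6 weeks, while Hmgcs1 stays between 20.01 and 50.6 CPM.

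Other genes of lipid metabolism outside the module gave no called gene in the 4 comparisons by edgeR. Of 35, 34, 33 and 32 tested, 6, 0, 3 and 1 had an unadjusted p under 0.05 in luminal against basal, intermediate against basal, luminal against intermediate and luminal GFP+ against GFP- cells. By DESeq2 4, 0, 2 and 1 of them were called, all lower in the group named first.

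A repeat run of the 6-week plate gives the spread between runs of the same wells. Over the 37 wells of kept cells, 38 members had at least 10 reads, all 38 agreed within 2-fold, and the median absolute log2 ratio between the runs was 0.059. This spread holds no difference between cells or between mice. The differences between plates given above cannot be judged by it, since groups of few cells also vary with the cells sampled.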

How the data were processed

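Single cells were sequenced with Smart-seq2. Per the labels, the authors trimmed reads with Trim Galore 0.6.5, aligned them to GRCm38 with STAR 2.7.7a and counted them per gene with HTSeq 0.13.5. The strand setting is not given in the sources used here. The deposited values are raw read counts per gene and cell, and the deposited annotation gives plate, gate, GFP state and chase. Coordinates are GRCm38, and 37902 of 39154 identifiers matched a symbol in GENCODE M21.

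Filters removed cells at or above 10% mitochondrial reads, cells with 1400 or fewer genes or with 100000 or fewer reads, cells under 2 reads of *Epcam*, and cells with more than 1 read of *Dcpp1*, a salivary gene. Cells were sorted singly and no doublet caller was run. The repeat run of the 6-week plate was left out. Counts of at least 3 cells per plate, gate and GFP state were summed. edgeR 4.0.16 in R 4.3.3 was run with its quasi-likelihood test, its filter on low counts, TMM and the plate as a block, because the gates of a plate share mice. P-values were adjusted by Benjamini-Hochberg over all genes tested. The test was tried on simulated data with a true log2 change of 3. At the real dispersions it recovered 38.8% of changed genes in luminal against basal and 24.5% in intermediate against basal cells. It recovered 17.2% in luminal against intermediate and 37.4% in luminal GFP+ against GFP- cells. Most changes of that size were missed, so 0 called genes does not show that 2 groups were alike. Plates are few, and each holds 1 chase and 1 or 2 mice. With the plate as a block, p-values set the difference between groups against its variation from plate to plate. Levels are CPM of the sums, and ratios use a pseudocount of 1 CPM. A summed group held at least 1298589 reads. Alternatives were DESeq2 1.42.0, other size factors, no filter, no block, other units, thinning, other thresholds on cells and leaving out plates. Python 3.11.15 with pandas 2.3.3, scipy 1.17.1 and matplotlib 3.10.9 was used for the rest.

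Named with values are members with an adjusted p under 0.05 in any of the 4 tests, the 5 per arm with the highest level per length, the 5 per arm with the largest ratio between the K5Cre plates in intermediate GFP+ cells, and *Srebf1*, *Srebf2*, *Insig1* and *Pparg*. The members, lists and tests were chosen with earlier results of these data known.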

Additional observations from a re-analysis of the deposited data

Results flagged for a closer look

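A plate that stood apart from the others of its gate was looked for on the log2(CPM + 1) scale in sets of 4 to 10 plates, for the 28 named members and the 3 arm sums, by Dixon's test at the 95% level. It marked 17 values, for 14% of the sets, and chance alone marks about 1 in 20 sets.

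The SMACre 1-week plate gave 5 of them. Its luminal GFP+ cells had a fatty acid arm sum of 488 CPM, with 1251 CPM the nearest, and *Mvk* at 0.227 CPM. Its 4 intermediate GFP+ cells had *Acly* at 2.29 CPM, with 155.98 CPM the nearest, and *Pmvk* and *Dgat1* at 0. The 3 luminal GFP- cells of the SMACre 3-week plate of batch 2 had a storage arm sum of 46.2 CPM, *Srebf1* at 7.82 CPM and *Elovl1* at 0.

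On the K5Cre plates, *Idi1* at 188.7 CPM in intermediate GFP+ cells of the second plate and *Fdft1* at 479 CPM in basal GFP+ cells of the first plate stood above the other plates of their gate. *Pparg* was at 45.1 CPM in luminal GFP- cells of the first K5Cre plate and at 1.17 CPM or less on the others, and it was at 0 in basal GFP+ cells of the SMACre 3-week plate of batch 2.

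Among the rest, *Scd2* was at 5.89 CPM in luminal GFP+ cells of the 6-week plate and *Insig1* at 0 in luminal GFP- cells of the SMACre 3-week plate of batch 3. *Cd36* was at 42.8 CPM in luminal GFP- cells of the 4-week plate, with 0.284 CPM the nearest. *Lpl* was at 0.106 CPM (1 read) in luminal GFP+ cells of the second K5Cre plate. It was at 1.17 CPM (2 reads) in luminal GFP- cells of the 6-week plate. All other plates of these gates were at 0, where the test marks any read, so these marks carry no information.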

How the results depend on the processing

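The number of members called in the 4 tests was 1, 0, 0 and 0 by edgeR in luminal against basal, intermediate against basal, luminal against intermediate and luminal GFP+ against GFP- cells. DESeq2 called 7, 1, 5 and 3 members (1595, 99, 899 and 305 genes), and edgeR without the filter on low counts called 7, 1, 3 and 0 (906, 25, 335 and 79 genes). In luminal against basal cells 0 members were called after thinning, with only cells of over 100 *Dcpp1* reads removed, on the SMACre plates alone or on the K5Cre plates alone, while 2.8%, 2.0%, 0.401% and 0% of genes were, against 0.562%. Leaving out 1 plate gave 0 to 1 members and 5 to 44 genes there. Without the replicate block 1, 0, 0 and 0 members and 1.07%, 0%, 0.217% and 0% of genes were called, and no member's call changed. With a Cre line at a chase time as the unit 1.13% of genes were called in luminal against basal cells. In luminal against intermediate cells, where edgeR called 0, thinning gave 55 genes, the *Dcpp1* setting 47, a minimum of 5 cells 8, and the K5Cre plates alone 17. The 13 gene and comparison pairs with an unadjusted p under 0.05 kept their direction under each alternative. Counted over pairs and the alternatives that tested them, a call was lost 6 times, each time that of *Lpl*, and gained 13 times; the cause was not tested. The count of 17 members over 2-fold higher on the second K5Cre plate was the same in all 7 alternatives. The count of members higher at each chase time went from 3 to 1 after thinning, and it was 3 with the *Dcpp1* setting. Many groups held few cells: both K5Cre basal GFP+ groups and 11 of the 12 GFP- groups held 3 to 6.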
